A study of Arabidopsis thaliana with 9 samples.

Results

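Transcripts of 10 plastid-encoded subunits of the chloroplast NADH dehydrogenase-like (NDH) complex were followed on 9 Arabidopsis thaliana arrays. The members are the 10 genes, of 13356 measured by a single-gene probe set and among 22746 probe sets tested, whose single symbol in the platform's gene table begins with ndh in lower case: ndhA, ndhC, ndhD, ndhE, ndhF, ndhG, ndhH, ndhI, ndhJ and ndhK. Each gene has 1 probe set, and all 10 gene numbers were found on the plastid chromosome of the TAIR10.1 gene table. A further probe set is listed for 2 gene numbers that carry the symbol ndhB, the copies in the inverted repeat, and it is not a member because it has no single gene.

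The arrays hold 3 groups of 3 biological replicates in the Col-0 background, and all plants were 8 weeks old and grown in a greenhouse with 12 h of light and 12 h of dark. The sample titles name Col-0 for the wild-type and variegated arrays but not for the stunted ones. Wild-type plants were compared with a variegated and with a stunted msh1 RNAi transgenic line, in which RNA interference targets the nuclear gene MSH1, a MutS homologue of mitochondria and plastids. The design asks which transcripts accompany each RNAi phenotype. The labels give no promoter for the RNAi construct and do not say how many transgenic events a line holds. MSH1 has no single-gene probe set among those named here, so its suppression was not analysed. RNA came from the whole above-ground part, so a change in the number of green cells and a change in plastid RNA per cell cannot be told apart. How far the labelling of plastid RNA differed between arrays was not tested, so the levels below are array signals.

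The NDH complex sits in the thylakoid membrane, takes electrons from ferredoxin and passes them to plastoquinone. It takes part in cyclic electron flow around photosystem I and in chlororespiration, the oxidation and reduction of plastoquinone that does not depend on the main light reactions. It is related to respiratory complex I. Its plastid-encoded subunits fall into a membrane arm (NdhA to NdhG) and a stroma-facing subcomplex A (NdhH to NdhK), and nuclear genes supply the remaining subunits, the assembly factors and the proteins that splice and edit the ndh transcripts. In the gene table ndhJ, ndhK and ndhC are adjacent, ndhF lies between ycf1 and rpl32, and ndhD, ndhE, ndhG, ndhI, ndhA and ndhH follow each other from ccsA to rps15, with psaC between ndhD and ndhE.

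Values are log2 expression as deposited. Medians of the arrays ranged from 3.37 to 3.43. The 9 arrays correlated at 0.9738 to 0.9946 across probe sets, so none was a duplicate. The labelled green tissue was checked with rbcL, at 7.99 to 10.06, and psbA, at 9.52 to 11.67 over the 9 arrays, genes chosen for this check after the gene table was opened. The nuclear leaf markers RBCS and LHC had no single-gene probe set (0 of 5), nor did the flower markers (0 of 4). The guard cell marker FMA, 1 of 3 measured, lay at 3.68 to 3.93 with no group apart. The root and hypocotyl beta-glucosidase PYK10, the only root marker, lay at 4.01 to 4.45 in wild type, 3.78 to 4.09 in variegated and 5.51 to 5.98 in stunted plants, and its part in the results below was not tested.

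Of the 10 ndh genes, 7 lay above the array median on every array and ndhF lay below it on every array. The subcomplex A gene ndhI, which encodes an iron-sulfur protein of the electron path, was at the 99.7th to 99.9th percentile of each array's probe sets. The percentile was 98.1 to 99.1 for ndhC, 94.5 to 98.2 for ndhA and 94.5 to 97.8 for ndhD. It was 83.3 to 93.3 for ndhJ, 73.0 to 87.5 for ndhK and 61.2 to 74.4 for ndhH. The dim genes were ndhG at 38.2 to 74.1, ndhE at 25.9 to 75.5 and ndhF at 0.6 to 24.6. These percentiles describe how bright each probe set is and give no order of transcript amounts between genes.

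Within subcomplex A, ndhH, whose product lies next to the quinone site, had log2 levels of 5.03, 4.61 and 4.08 in wild-type replicates 1 to 3, 4.37, 4.57 and 4.70 in variegated replicates 1 to 3, and 4.38, 5.15 and 5.04 in stunted replicates 1 to 3. The 3 groups overlapped, with wild-type replicate 3 the lowest array and stunted replicate 2 the highest. The levels of ndhI were 12.14, 11.84 and 11.61 in wild type, 11.50, 11.89 and 11.96 in variegated and 11.75, 12.03 and 12.20 in stunted plants, in the same replicate order, which is kept below. Its whole range over the 9 arrays was 0.70 log2 units, and the groups overlapped.

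The gene ndhJ encodes a small subunit of the same arm. It had levels of 7.10, 6.26 and 6.23 in wild type, 6.25, 7.19 and 6.78 in variegated and 6.45, 7.41 and 7.81 in stunted plants. Stunted replicates 2 and 3 exceeded every other array, while stunted replicate 1 lay inside the wild-type range. Its neighbour ndhK encodes the subunit that holds the iron-sulfur cluster nearest to the quinone site. Its levels were 6.63, 5.84 and 5.06 in wild type, 5.63, 6.27 and 6.12 in variegated and 5.31, 6.21 and 6.79 in stunted plants. Wild type alone spanned almost the whole range of ndhK, and the variegated arrays lay inside the wild-type range.

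Of the membrane arm, ndhA encodes the subunit that joins it to subcomplex A. Its levels were 9.31, 9.05 and 8.61 in wild type, 8.10, 9.05 and 9.31 in variegated and 8.62, 9.34 and 9.70 in stunted plants. Variegated replicate 1 was the lowest array, and the groups overlapped. The levels of ndhD, which encodes an antiporter-like, proton-pumping subunit, were 8.91, 8.49 and 8.13 in wild type, 8.44, 9.11 and 9.26 in variegated and 8.97, 9.05 and 9.42 in stunted plants. Every stunted array exceeded every wild-type array for ndhD, by 0.06 between the closest pair.

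The gene ndhC, a small membrane subunit, varied little, with 9.89, 9.80 and 9.86 in wild type, 9.62, 9.96 and 10 in variegated and 9.90, 9.89 and 10.38 in stunted plants. The stunted arrays also lay above the wild-type arrays for ndhC, but the closest pair differed by less than the rounding of these levels. The other antiporter-like subunit gene, ndhF, ranged from 2.37 to 2.81 over the 9 arrays, so dim that its lack of spread carries little information.

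The dim genes ndhE and ndhG, small membrane subunits, spread most. The levels of ndhE were 3.59, 3.38 and 3.44 in wild type, 2.85, 3.43 and 4.07 in variegated and 3.23, 4.12 and 5.32 in stunted plants. Those of ndhG were 3.94, 3.71 and 3.02 in wild type, 3.46, 3.53 and 4.80 in variegated and 3.48, 4.53 and 5.17 in stunted plants. For both genes stunted replicate 3 was the highest array and stunted replicate 1 lay inside or below the wild-type range.

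**Figure D1:**
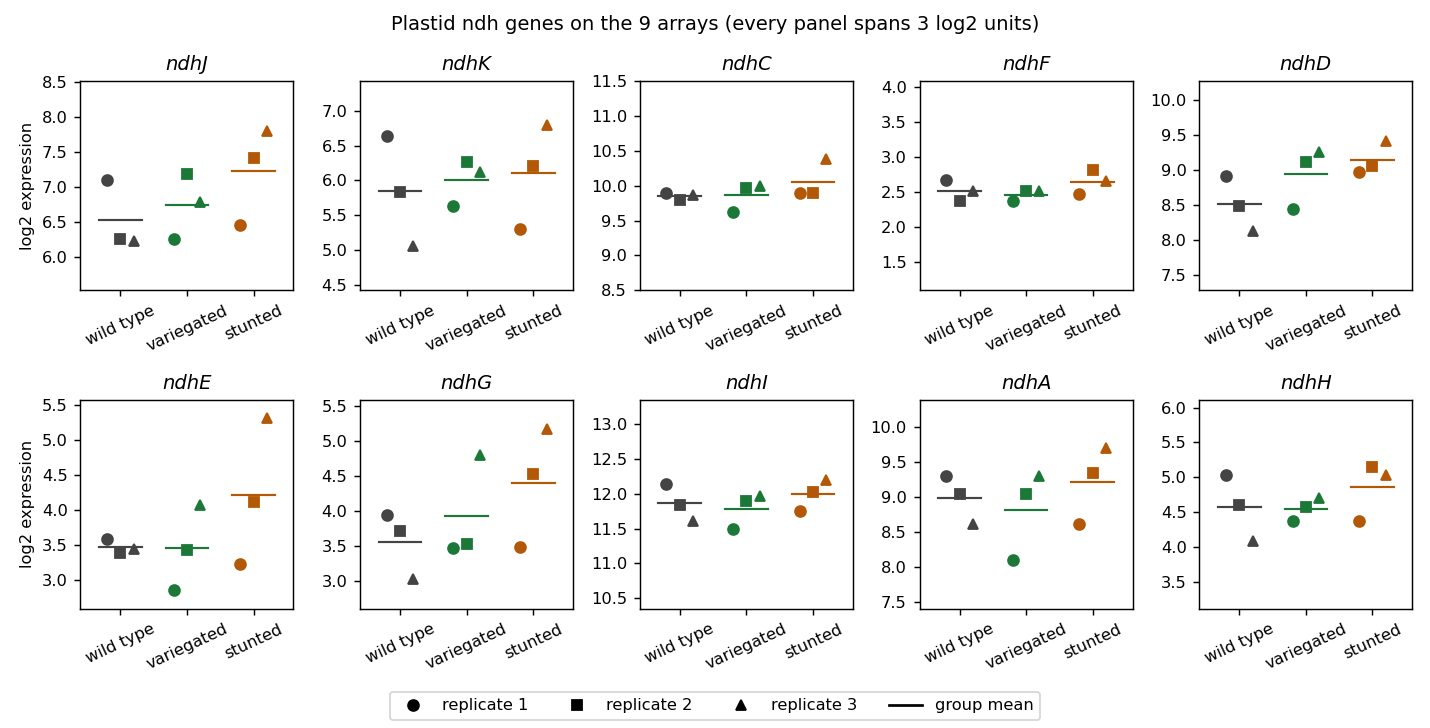
Log2 expression of the 10 ndh genes (vertical axes, each spanning 3 log2 units) in the wild-type, variegated and stunted groups, with 1 symbol per array shaped by replicate number and a line at each group mean. The groups overlap in most panels; ndhD and ndhC are the genes whose 3 stunted arrays all lie above the 3 wild-type arrays.

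No ndh gene passed in any of the 3 comparisons by limma's moderated test, fitted over all 9 arrays and 22746 probe sets with Benjamini-Hochberg adjustment and a threshold of 0.05. Against wild type, 0 of 10 passed in variegated plants, where 0.444% of all probe sets did, and 0 of 10 in stunted plants, where 9.66% did. Between stunted and variegated plants 0 of 10 passed, against 1.74% of all probe sets. At an unadjusted p under 0.05 the counts were 0, 1 and 0 of 10, where 11.6%, 22.5% and 15.4% of all probe sets fell under that value. Where both RNAi phenotypes are set against wild type, they share the wild-type arrays.

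In variegated plants 5 ndh genes had a change above 0 and 5 below, with a median of 0.00 on the log2 scale, where 54.8% of all probe sets lay above 0 with a median of 0.01. The largest difference was that of ndhD, 8.51 ± 0.39 in wild type and 8.94 ± 0.43 in variegated plants (mean ± SD, n = 3), a change of 0.43 (SE 0.25, 95% interval -0.13 to 0.98, limma adjusted p = 0.563). The change of ndhA was -0.17 (95% interval -0.96 to 0.63) and that of ndhC 0.02 (-0.31 to 0.34). For 4 genes the interval reached above 1 and for 1 below -1, so a 2-fold difference lay within the intervals of those genes. Arrays did not overlap for 0 of 10 genes in either direction, where 9.36% of all probe sets were higher and 7.43% lower in that way. The balance of signs rested on single arrays, with 9 of 10 above 0 and a median of 0.24 without variegated replicate 1, and 9 of 10 with a median of 0.13 without wild-type replicate 1. It was 3 of 10 without variegated replicate 2 (median -0.02) or 3 (median -0.07), and 4 of 10 without wild-type replicate 2 or 3.

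In stunted plants all 10 ndh genes had a mean above that of wild type, with a median change of 0.27 and a range of 0.13 to 0.83, where 51.6% of all probe sets lay above 0 and their median was 0.01. The 10 genes vary together between arrays, as described below, so the 10 signs are not 10 separate observations. The change of ndhD, from 8.51 ± 0.39 to 9.15 ± 0.24 (n = 3), was 0.64, or 1.56-fold (SE 0.25, 95% interval 0.08 to 1.2), and did not pass (limma adjusted p = 0.157). It was the gene with an unadjusted p under 0.05 (0.029). Arrays did not overlap between the groups for 2 of the 10 genes, ndhD and ndhC, where 11.9% of all probe sets were higher in that way. The largest changes by size were in dim or variable genes, at 0.83 (SE 0.47, limma adjusted p = 0.357) for ndhG, 0.75 (SE 0.47, adjusted p = 0.409) for ndhE and 0.69 (SE 0.38, adjusted p = 0.333) for ndhJ. The remaining 6 genes had changes of 0.13 to 0.28, and their intervals all included 0. For 6 of the 10 genes the interval reached above 1, and for none did it reach below -1.

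Single arrays moved this pattern. The median change was 0.16, with 8 of 10 genes above 0, without stunted replicate 3, and 0.17 with 9 of 10 without wild-type replicate 3. It was 0.59 without stunted replicate 1 and 0.58 without wild-type replicate 1, with 10 of 10 above 0 each time. No gene passed in any of the 9 omissions of a single array, and the smallest limma adjusted p was 0.0633.

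Between stunted and variegated plants all 10 genes were above 0, where 46.5% of all probe sets were, with a median of 0.26 and a range of 0.10 to 0.77. The stunted arrays are those set against wild type above, so the 2 comparisons are not separate observations. The largest difference was that of ndhE, 3.45 ± 0.61 in variegated and 4.22 ± 1.05 in stunted plants (n = 3), at 0.77 (SE 0.47, 95% interval -0.29 to 1.82, limma adjusted p = 0.501). The smallest was that of ndhK at 0.10 (95% interval -0.88 to 1.08). For 0 of 10 genes the arrays did not overlap, where 8.11% of all probe sets were higher and 9.55% lower in that way. The median was 0.52 without stunted replicate 1, 0.13 without stunted replicate 3 and 0.10 without variegated replicate 1. When a covariate for RNA integrity was added, the actin signal described below, 5 of 10 genes were above 0 with a median of -9.03e-05, and with the mean of the other plastid genes 5 of 10 with -0.003.

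**Figure D2:**
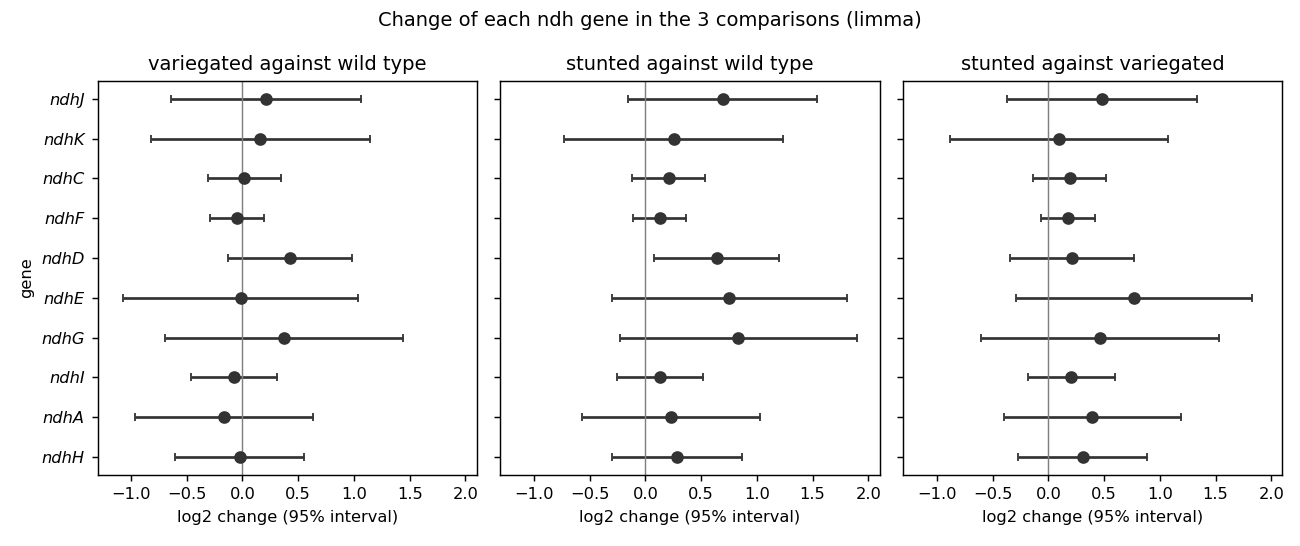
Log2 change of each ndh gene (points) with its 95% interval from limma (bars) in the 3 comparisons, 3 arrays per group. All points lie above 0 in the comparisons of stunted plants, and all intervals but that of ndhD against wild type include 0.

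Against wild type the 6 membrane-arm genes had a median of 0.43 in stunted and -0.00 in variegated plants, and the 4 genes of subcomplex A had 0.27 and 0.07. By position, the 6 genes from ndhD to ndhH had a median of 0.46 in stunted plants and the ndhJ, ndhK and ndhC genes 0.26. In variegated plants these medians were -0.02 and 0.16. The difference between arms or between clusters was not tested.

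The ndh genes moved together from array to array. For all 10 genes the widest range within a group exceeded the widest difference between group means. A range of single arrays is readily wider than a difference between means of 3 arrays. The share of all probe sets with this trait was not computed, so the count does not set the ndh genes apart. Wild-type replicate 1 was the highest wild-type array for 10 of 10 genes, and variegated replicate 1 the lowest variegated array for 10 of 10. Stunted replicate 1 was the lowest stunted array for 9 of 10, and stunted replicate 3 was the highest of all 9 arrays for 8 of 10. Replicate numbers have no order, and the same number stood high in 1 group and low in the others.

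Set against its own mean over the 9 arrays, the average ndh gene stood at 0.18, -0.20 and -0.48 in wild-type replicates 1 to 3, at -0.48, 0.01 and 0.22 in variegated replicates 1 to 3, and at -0.28, 0.32 and 0.71 in stunted replicates 1 to 3. The mean over the 10 probe sets was 6.57 ± 0.33 in wild type, 6.65 ± 0.36 in variegated and 6.99 ± 0.50 in stunted plants (n = 3 each). The group means differed by less than the arrays of the stunted group did among themselves, from 6.46 to 7.45. Such a range is readily wider than a difference between means of 3 arrays, and the difference between groups in this average was not tested.

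**Figure D3:**
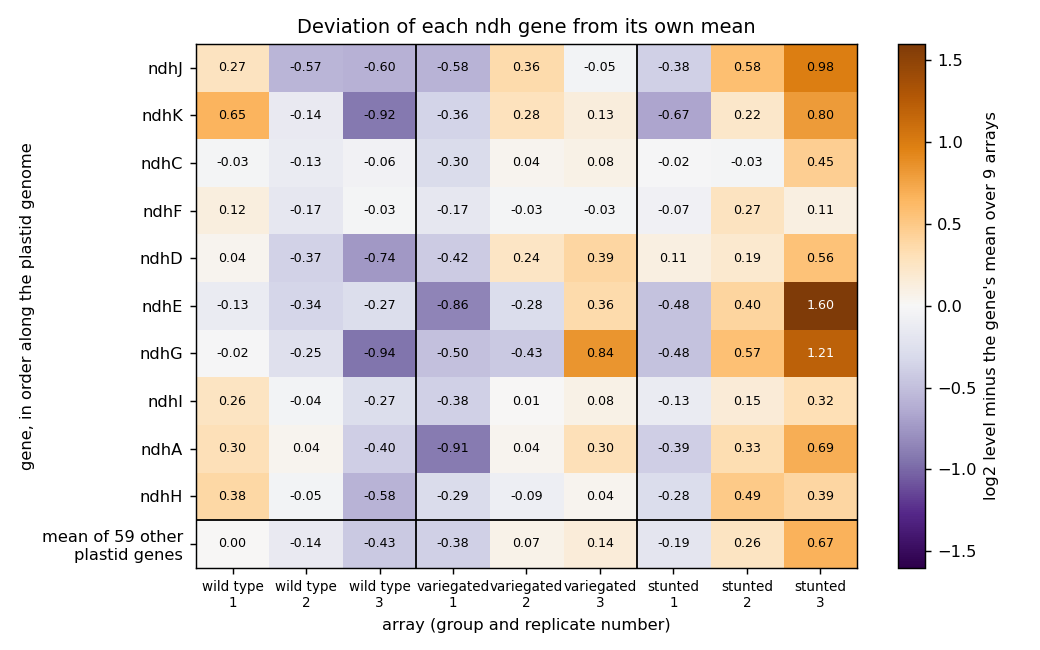
Log2 level of each ndh gene minus its own mean over the 9 arrays (colour and printed value), with genes in their order along the plastid genome as rows, arrays as columns and the average of the 59 other plastid-encoded genes as the bottom row. Stunted replicate 3 is above the mean in every row, and wild-type replicate 3 and variegated replicate 1 are below it in every row.

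After the group means were subtracted, all 45 pairs of ndh genes were positively correlated over the 9 arrays, with a median r of 0.77 and a range of 0.29 to 0.96. These points share arrays, RNA samples and the normalization, so the values are a description. Pairs within a cluster of adjacent genes had a median of 0.81 (18 pairs) and pairs from different clusters 0.73 (27 pairs). The closest pairs were ndhA with ndhI and ndhD with ndhI, at 0.96, while ndhK and ndhI, from different clusters, reached 0.94. The loosest was ndhC with ndhF at 0.29, a pair with the dimmest gene. The same measure had a median of 0.58 over the 1711 pairs of other plastid genes and of 0.01 over 218130 pairs of nuclear genes.

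The average of the other plastid-encoded genes had a similar array pattern. Averaged over 59 genes, their deviation from their own means was 0.00, -0.14 and -0.43 in wild type, -0.38, 0.07 and 0.14 in variegated and -0.19, 0.26 and 0.67 in stunted plants. The ndh average differed from it by -0.10 to 0.18 on any array. Stunted replicate 3 was the highest stunted array for 48 of the 59, and variegated replicate 1 the lowest variegated array for 52. Wild type was less alike, since replicate 1 was the highest wild-type array for 10 of 10 ndh genes but for 32 of the 59, and the lowest for 11 of the 59. In stunted against wild-type plants the 59 genes had a median change of 0.29, close to the 0.27 of the ndh genes, with 49 of 59 above 0. Of the 59, 9 rose and 0 fell, against 0 of 10 ndh genes, where 4.91% of all probe sets rose and 4.75% fell. The difference between those counts was not tested. In variegated plants the 59 had a median of 0.09, with 1 that rose, where 0.268% of all probe sets rose.

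With the mean of the 59 genes as a covariate, a fit chosen after the data were seen, 3 of the 10 ndh genes were above 0 in stunted against wild-type plants and the median was -0.06. In that fit ndhD had 0.22 (limma adjusted p = 0.6) and ndhA -0.46 (adjusted p = 0.119), and no ndh gene passed. Within groups, the slope of ndh genes on that mean was 1.97 (SE 0.34) for ndhE, 1.93 (SE 0.38) for ndhG and 1.85 (SE 0.30) for ndhK, against 0.71 (SE 0.13) for ndhI, 0.52 (SE 0.16) for ndhC and 0.24 (SE 0.15) for ndhF. It was 1.57 for ndhA (SE 0.18) and ndhJ (SE 0.28), 0.97 (SE 0.22) for ndhD and 0.95 (SE 0.26) for ndhH. No slope passed after adjustment over all probe sets, with limma adjusted p from 0.0962 for ndhA to 0.784 for ndhF.

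Control signals moved with the arrays as well. The 25S rRNA probe set read 4.25, 4.19 and 6.44 in wild type, 4.49, 4.97 and 8.66 in variegated and 4.50, 8.99 and 8.58 in stunted plants. The array with the highest 25S signal had the highest ndh average in variegated plants and the middle one in stunted plants, where the array with the lowest 25S signal had the lowest ndh average. In wild type the array with the highest 25S signal had the lowest ndh average. The actin 3' minus 5' signal, used as a sign of RNA integrity, was 1.11, 1.11 and 1.56 in wild type, 0.95, 1.05 and 1.45 in variegated and 1.42, 1.59 and 1.95 in stunted plants. A second such signal, of GAPDH, was -0.17, -0.002 and 0.03 in wild type and -0.14, -0.20 and -0.03 in variegated plants. In stunted plants it was -0.16, 0.11 and -0.09, without the higher values seen for actin. The GAPDH signal was not used as a covariate. With the 25S signal as a covariate 9 of 10 ndh genes were above 0 in stunted against wild-type plants with a median of 0.11, and with the actin signal 7 of 10 with 0.11. The part of these signals in the ndh levels beyond these fits was not tested.

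None of the measured plastid genes next to ndh genes passed in any comparison, where 0.444%, 9.66% and 1.74% of all probe sets did. At an unadjusted p under 0.05 (limma) the counts were 0, 1 and 0 of 3, against 11.6%, 22.5% and 15.4% of all probe sets. The neighbours with a single-gene probe set were psaC, for an iron-sulfur subunit of photosystem I, rps15, for a small ribosomal subunit protein, and ccsA, for a factor of cytochrome c maturation. The level of psaC, which lies between ndhD and ndhE, was 6.62, 6.03 and 4.96 in wild type, 6.02, 6.18 and 6.74 in variegated and 5.84, 6.18 and 7.09 in stunted plants, so that the groups overlapped. Its change in stunted plants was 0.50 (SE 0.43, limma adjusted p = 0.58). Beside ndhH, rps15 had 4.68, 4.02 and 4.56 in wild type and 4.71, 5.03 and 5.52 in stunted plants, where the groups did not overlap, with a change of 0.67 (SE 0.24, adjusted p = 0.132). Beside ndhD, ccsA had a change of 0.40 (SE 0.25, adjusted p = 0.406).

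The genes whose levels followed the ndh average most closely over the 9 arrays were named by a fixed measure, Pearson's r. In the plastid genome they were rps16 (0.957), ccsA (0.955), psaI (0.95), psaA (0.937) and petA (0.932). Of the 59 other plastid genes 25, or 42.4%, had an r above 0.8. Outside the plastid genome 74 of 13287 genes, or 0.557%, did. The highest of those were AT1G74320 (0.961), AT4G21170 (0.946), AT5G40500 (0.928), AT1G03610 (0.902) and AT3G28040 (0.899), the extremes of many genes compared over few arrays.

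Among the listed nuclear genes, 4 for the splicing and editing of plastid transcripts and 1 for NDH assembly rose in stunted against wild-type plants. Some of these calls rested on single arrays, as given below. Of 17 listed genes for the splicing and editing of plastid transcripts, 8 were measured. In stunted against wild-type plants 4 of these rose and none fell, where 4.91% of all probe sets rose and 4.75% fell, and all 8 were above 0 with a median of 0.49. The gene lists were chosen with earlier results of these data known, so this count is not independent support for a change of the list. The root marker PYK10 was also higher in stunted plants, by 1.5 (SE 0.15, limma adjusted p = 0.000875), and its part in these rises was not tested. In variegated plants 0 of 8 passed (limma, 2 at an unadjusted p under 0.05), with a median of 0.18 and the smallest p-values in CAF1 and OTP84. Of all probe sets 0.444% passed there and 11.6% had an unadjusted p under 0.05.

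The largest rise was that of CAF1, a splicing factor of plastid group II introns. Its levels were 3.54, 4.11 and 4.08 in wild type, 4.29, 4.63 and 4.65 in variegated and 5.01, 5.14 and 5.33 in stunted plants, and no group overlapped another. It rose by 1.25 in stunted plants (2.37-fold, SE 0.17, limma adjusted p = 0.0025), and had 0.62 (SE 0.17, adjusted p = 0.166) in variegated plants.

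The other 3 that rose were pentatricopeptide repeat proteins that direct the editing of ndh transcripts. OTP84, which acts on ndhB and ndhF, had 3.51, 3.59 and 3.55 in wild type, 3.78, 3.82 and 3.80 in variegated and 4.0, 3.96 and 4.22 in stunted plants. Its rise in stunted plants was small, 0.51 or 1.43-fold (SE 0.08, limma adjusted p = 0.00437), but larger than the spread between arrays. OTP84 and CRR22 in wild type are as dim as ndhE and ndhG, near the low end of the scale, so the size of their folds is uncertain. CAF1, at 3.54 to 4.11 in wild type, and CRR21, at 3.72 to 4.47, lay within the 9-array range of ndhG, 3.02 to 5.17. The same limit holds for their folds. In variegated plants the change of OTP84 was 0.25 (SE 0.08, limma adjusted p = 0.23). CRR22, which acts on ndhB and ndhD, went from 3.63 ± 0.11 to 4.10 ± 0.24 (n = 3), a rise of 0.48 (SE 0.11, adjusted p = 0.0301). CRR21, which acts on ndhD, went from 4.19 ± 0.41 to 5.17 ± 0.45, a rise of 0.98 (SE 0.26, adjusted p = 0.0463).

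CAF1 and OTP84 passed in each of the 9 omissions of a single array and in 11 of 11 other settings. CRR22 and CRR21 each passed in 1 of the 9 omissions, that of stunted replicate 1, with limma adjusted p up to 0.098 and 0.15. They passed in 7 of 11 other settings and were lost with the 2 compared groups alone and with the 25S, actin or plastid covariate, with an adjusted p of up to 0.16 for CRR22 and 0.228 for CRR21. The change of CRR21 was 0.55 with the actin covariate. The count of 4 fell to 2 without any other single array. CRR28, an editing factor of ndhB and ndhD, did not pass at 0.45 (SE 0.13, limma adjusted p = 0.0639), nor did the locus AT5G16140 at 0.64 (SE 0.18, adjusted p = 0.0556) or OTP85, an editing factor of ndhD, at 0.10 (SE 0.08, adjusted p = 0.571). Between stunted and variegated plants 0 of 8 passed (limma, 5 at an unadjusted p under 0.05), although all 8 were above 0 with a median of 0.29. Of all probe sets 1.74% passed there, 15.4% had an unadjusted p under 0.05 and 46.5% were above 0. The smallest p-values of the 8 were those of AT5G16140 at 0.68 (SE 0.18, adjusted p = 0.0988) and CAF1 at 0.63 (SE 0.17, adjusted p = 0.0993).

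Of 8 listed assembly genes 4 were measured, and 1 rose in stunted plants, where 4.91% of all probe sets rose. This was Cpn60beta4, a plastid chaperonin subunit needed to fold NdhH. It had 6.03, 6.03 and 5.89 in wild type, 6.26, 6.09 and 6.20 in variegated and 6.60, 6.77 and 6.95 in stunted plants, with every stunted array above every other array. The rise was 0.79 or 1.73-fold (SE 0.10, limma adjusted p = 0.0018), and it passed in all 9 omissions. Against variegated plants it rose by 0.59 (SE 0.10, adjusted p = 0.0237), where 0.87% of all probe sets rose. That call was lost without any 1 variegated array or without stunted replicate 2, with an adjusted p of up to 0.0908. It was also lost with the 2 compared groups alone (adjusted p = 0.0688), with the actin covariate (adjusted p = 0.16) and with the mean of the other plastid genes (adjusted p = 0.0645). In variegated plants 0 of 4 passed, where 0.444% of all probe sets did. At an unadjusted p under 0.05 (limma) there was 1 of 4, against 11.6% of all probe sets, AT5G52780 at 0.32 (SE 0.10, adjusted p = 0.25). In stunted against wild-type plants 2 of the 4 were above 0, with a median of 0.08. In stunted against variegated plants 2 of 4 were above 0, with a median of -0.16. There AT5G52780 was lower, at -0.38 (SE 0.10, limma adjusted p = 0.117), and did not pass.

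Of 20 listed nuclear-encoded subunits 4 were measured. None passed in any comparison, where 0.444%, 9.66% and 1.74% of all probe sets did. At an unadjusted p under 0.05 (limma) the counts were 0, 1 and 0 of 4, against 11.6%, 22.5% and 15.4% of all probe sets. The closest to passing was NdhN of subcomplex A in stunted plants, at 8.41, 8.79 and 8.89 against 8.04, 8.33 and 8.33 in wild type, a change of 0.46 (SE 0.13, adjusted p = 0.0646). The locus AT2G04039 had 0.19 (SE 0.10, adjusted p = 0.303), NdhS 0.13 (SE 0.14, adjusted p = 0.663) and NdhL 0.13 (SE 0.11, adjusted p = 0.58). In variegated plants the smallest p-values were those of AT2G04039 at 0.13 (SE 0.10, adjusted p = 0.675) and NdhN at 0.17 (SE 0.13, adjusted p = 0.706), and between stunted and variegated plants NdhN had 0.29 (SE 0.13, adjusted p = 0.34) and NdhS 0.17 (SE 0.14, adjusted p = 0.647).

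Of 7 listed genes of the PGR5 route of cyclic electron flow and of other plastoquinone enzymes, 2 were measured. NDC1, a plastid NAD(P)H dehydrogenase that also reduces plastoquinone, had 5.39, 6.02 and 5.75 in wild type, 6.11, 6.04 and 6.27 in variegated and 6.42, 6.47 and 6.54 in stunted plants. It rose by 0.76 in stunted plants (1.69-fold, SE 0.14, limma adjusted p = 0.0113) and passed in all 9 omissions, with the lowest stunted array above the highest wild-type array. With the actin signal as a covariate its adjusted p was 0.0649, and with the mean of the other plastid genes 0.0548. In variegated plants it had 0.42 (SE 0.14, adjusted p = 0.279) and did not pass. PGRL1B, a component of the PGR5 route, had 0.12 (SE 0.11, adjusted p = 0.621). Of 8 listed genes of plastid transcription only AT5G15700 was measured, with 0.22 in stunted plants (SE 0.08, adjusted p = 0.159) and 0.11 in variegated plants (SE 0.08, adjusted p = 0.671).

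**Figure D4:**
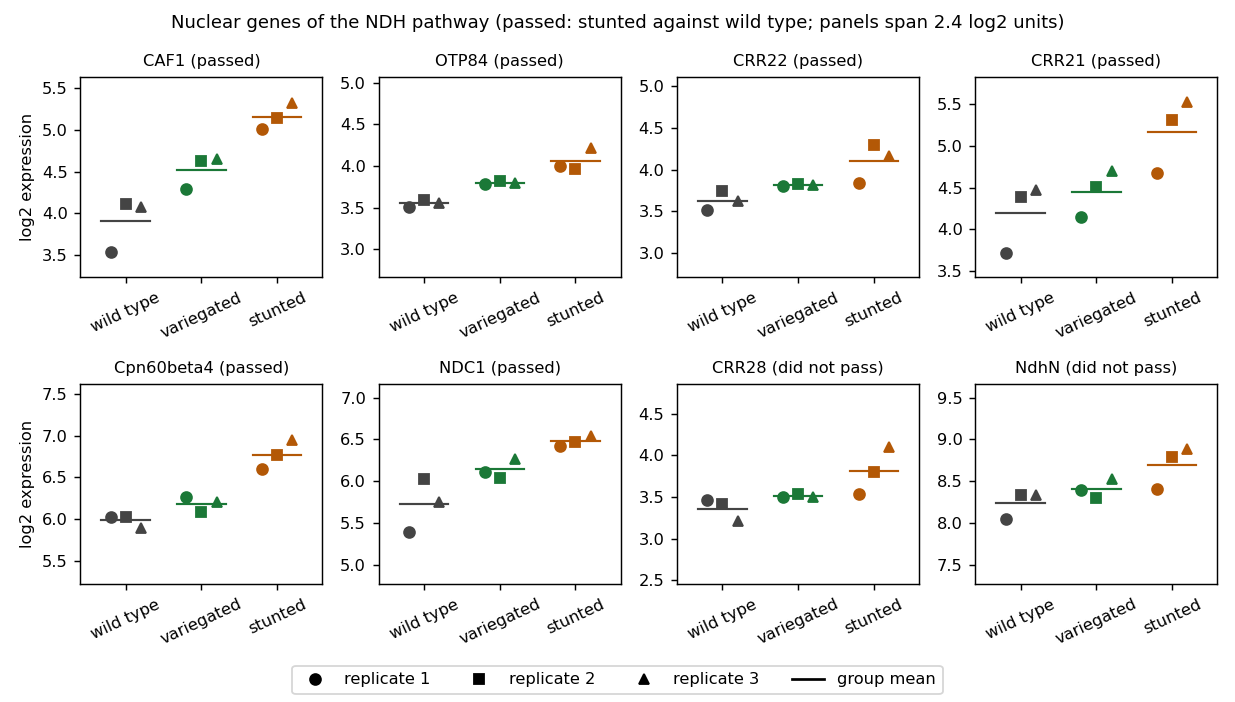
Log2 expression (vertical axes, each spanning 2.4 log2 units) of 8 nuclear genes on the 9 arrays, with 1 symbol per array shaped by replicate number and a line at each group mean. NDC1 is a separate plastoquinone-reducing enzyme, and the others are listed genes of plastid transcript processing, NDH assembly or NDH subunits. CAF1, OTP84, CRR22, CRR21, Cpn60beta4 and NDC1 rose in stunted against wild-type plants, and CRR28 and NdhN did not pass.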

How the data were processed

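The deposited values are log2 expression, 1 column per array of an Affymetrix 3' array. Per the submitters' processing notes RMA and the affy package were used, with no versions named. The background correction is not named there, which leaves the scale near the lowest value, 1.98, uncertain. RMA equalizes the distributions of the arrays, and a change shared by most transcripts would be hidden. Read depth does not apply to arrays, whose number limits the precision. The table has 22810 probe sets, and 64 controls were removed. The platform's old gene table gives a single gene for 13513 of the remaining 22746, several genes for 503 and no entry for 8730. Names of other genes followed the TAIR10.1 table, and the brightest probe set stood for a gene. No sequences were used.

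A mean per group was fitted with limma 3.58.1 in R 4.3.3 over all 9 arrays, with Benjamini-Hochberg adjustment over all probe sets tested. SE and 95% intervals are limma's, and tests are two-sided. The fit was tested on simulated data. Alternatives changed the normalization, the moderation, the covariates, the low-value filter and the arrays used. Groups and replicate numbers came from the titles. Replicate numbers were not taken as pairs. The labels call the arrays biological replicates.

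The members and gene lists were chosen with earlier results of these data known. The text names all members and, of each list, the genes that passed (at most 6 a comparison) or, where none did, 2 by smallest p, plus genes beside ndh genes and the 5 most like the ndh average inside and outside the plastid genome. A few list members that did not pass are named beyond that rule. The sources used here pair no gene name with some listed loci, which are named by locus.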

Additional observations from a re-analysis of the deposited data

Results flagged for a closer look

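The change against wild type differed between the stunted and variegated lines for 2 genes described here, by limma's test of that difference. This test is the same as the comparison of stunted against variegated plants above, where 1.74% of all probe sets passed. For Cpn60beta4 the difference was 0.59 (limma adjusted p = 0.0237), with 0.79 in stunted and 0.20 in variegated plants. It passed in 5 of 9 omissions of a single array and in 8 of 11 other settings, with an adjusted p of up to 0.16 where it was lost. For PYK10, a root and hypocotyl gene, it was 1.74 (limma adjusted p = 0.0018), with 1.5 in stunted and -0.24 in variegated plants. PYK10 passed in all 9 omissions of a single array and in 11 of 11 other settings. None of the 10 ndh genes differed in this way. Groups of 3 arrays are too small to test for single outlying arrays.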

How the results depend on the processing

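No ndh gene passed under any alternative: the counts stayed at 0 of 10 in each comparison with the replicate block, the 2 compared groups alone, quantile normalization, median centring, the intensity trend, robust moderation, array weights, 25S or actin covariates and 9 omissions, and at 0 of 9 without the dimmest 30% of probe sets, which drops ndhF. With the replicate block the smallest limma adjusted p was 0.541, 0.181 and 0.287 in the 3 comparisons, and over all alternatives 0.232, 0.0633 and 0.103. The replicate block gave 5 in place of 4 transcript-processing genes in stunted plants, and 191, 2889 and 940 probe sets in place of 101, 2197 and 396. Same-numbered arrays correlated at 0.004 to 0.281 in their deviations from group means, above 0.1 for 2 of 3 numbers in each comparison, and arrays correlated best with their own number in 13 of 18 cases. This is a hint from the data that numbers may be shared. Since the labels state no pairing and not every number passed 0.1, the numbers were not read as pairs. Of 199 member values per comparison, 22, 14 and 14 changed sign, and none of these passed; the cause was not tested. In variegated against wild-type plants, ndhC had -0.013 with quantile normalization, -0.036 with the 25S covariate and -0.052 with the mean of the other plastid genes as a covariate (chosen after seeing the data), where ndhK had -0.086. Array weights gave 0.026 for ndhE, 0.0098 for ndhF and 0.020 for ndhH, and the actin covariate 0.21 for ndhE. The omissions gave -0.41 to 0.19 for ndhA, -0.055 to 0.14 for ndhC, -0.33 to 0.28 for ndhE, -0.12 to 0.022 for ndhF, -0.064 to 0.60 for ndhG, -0.27 to 0.20 for ndhH, -0.20 to 0.066 for ndhI, -0.012 to 0.50 for ndhJ and -0.23 to 0.55 for ndhK. In stunted against wild-type plants, ndhA had -0.12 with the 25S covariate. The actin covariate gave -0.12 for ndhA, -0.0043 for ndhC and -0.053 for ndhE. The plastid covariate gave -0.46 for ndhA, -0.017 for ndhC, -0.10 for ndhE, -0.0047 for ndhG, -0.13 for ndhH, -0.18 for ndhI and -0.55 for ndhK. The omissions gave -0.012 to 0.53 for ndhA and -0.14 to 0.65 for ndhK. Between stunted and variegated plants, ndhK had -0.012 with the 25S covariate. The actin covariate gave -0.057 for ndhA, -0.081 for ndhC, -0.27 for ndhE, -0.25 for ndhG and -0.047 for ndhK. The plastid covariate gave -0.082 for ndhA, -0.080 for ndhD, -0.12 for ndhG, -0.0096 for ndhI and -0.46 for ndhK. The omissions gave -0.034 to 0.38 for ndhD and -0.25 to 0.49 for ndhK. The 4 rises among transcript-processing genes were 2 with the compared groups alone or with the 25S, actin or plastid covariate. Probe sets near the floor, ndhF, ndhE and ndhG among them, limit what can be seen in those genes.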
